A study of Homo sapiens with 3 samples.

Results

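The genes described here are the interferon-response and innate signalling families measured in MDA-MB-231 cells, chosen by symbol: protein-coding genes in the platform annotation that start with IFI, OAS, GBP and a digit, IRF and a digit, STAT and a digit, SLFN, ISG or IFNAR, and MX1 and MX2. The rule found 43 genes among 11915 protein-coding genes, 7 of them in the SLFN family and 36 in the other families. MDA-MB-231 is an established cell line from a human triple-negative breast cancer. Cultures were kept for 72 h with 10 µM Mt-CFX, with 10 µM CFX, or with 1% DMSO as the control, and a DMSO content is labelled for the control only. CFX is ciprofloxacin, a fluoroquinolone antibiotic, by the title of the series, and for Mt-CFX the labels hold a code name and no structure. With n = 1 array in every group there was no replicate spread to measure, no test was possible and no p-value is given. In bulk RNA, fewer cells with a transcript and less transcript per cell cannot be told apart.

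Values are log2 expression values per probe set, made by the authors with RMA, and 1 unit is a doubling. A gene was compared when its highest array value was at least 3.89 log2, the median over every probe set and array, which held for 33 of the 43 genes and for 8868 protein-coding genes in all. IFITM1 lay just inside this floor, at 4.02, and SLFN12L just outside it, at 3.45. Probe sets differ in how strongly they bind their targets, so values are compared between arrays and not between genes. Exactly equal values were common, since 17 of the 33 genes and 45.3% of all genes compared had 1 value on all 3 arrays. Some of these values were shared by many probe sets, as the 4.50 of IRF1 was by 277 on the Mt-CFX array. IRF5 and SLFNL1 shared a value, as did IFIH1 and STAT5A. How far such an equal value reads the gene itself is uncertain. The 5 mesenchymal markers named by the annotation, VIM, CD44, FN1, AXL and LOX, were above the floor, while the leukocyte markers CD14 and LYZ were below it and equal on the 3 arrays. Of 6 luminal and receptor markers, PGR was below the floor, ESR1 reached it only with CFX, at 3.92, and GATA3, FOXA1, KRT19 and EPCAM were above it.

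Interferons are secreted proteins that warn cells of infection. Type I interferons bind IFNAR1 and IFNAR2, the kinases JAK1 and TYK2 then phosphorylate STAT proteins, and these enter the nucleus with IRF9 and bind interferon-stimulated response elements in front of genes such as ISG15, IFIT1 and MX1. Their products block viral entry, translation and RNA. Tumour cells can also run this programme without infection when their own DNA or RNA reaches sensors in the cytosol. IFNAR1, IFNAR2, STAT2, MX1, OAS1 and IFI16 were not analysed here, so the classic targets below are the measured part of the programme.

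The response element is shown for 4 classic targets, because it is a sequence feature that interferon targets are known for, and for SLFN12L, the only SLFN gene with a match here. Its core was searched on both strands as GAAA, 2 further bases and GAAA, in the 250 bases before each gene's start, with sequences from RefSeq (GRCh38.p14). Capitals mark each match, overlapping matches run together, and each sequence is written 5′ to 3′ on the strand of the gene.
ISG15 (chr1:1013362-1013421, plus strand): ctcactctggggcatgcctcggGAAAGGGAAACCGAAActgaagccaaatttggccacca
IFIT1 (chr10:89392488-89392547, plus strand): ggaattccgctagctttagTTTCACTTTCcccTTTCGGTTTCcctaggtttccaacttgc
IFIT3 (chr10:89327833-89327892, plus strand): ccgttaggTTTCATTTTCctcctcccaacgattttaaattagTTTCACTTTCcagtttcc
IFIH1 (chr2:162318789-162318848, minus strand): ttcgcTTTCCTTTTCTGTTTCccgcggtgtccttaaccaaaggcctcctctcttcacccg
SLFN12L (chr17:35537770-35537829, minus strand): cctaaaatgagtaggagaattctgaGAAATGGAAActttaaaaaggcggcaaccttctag

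A promoter was matched for 30 of the 43 genes, 27 of them outside the SLFN family, and SLFN5 was not among them. The core was found in 11 of the 30, or 36.7%, against 3.6% of 15842 protein-coding genes. A second motif, TTCNNNGAA, the core of the gamma-activated site that STAT dimers bind, was found in 8 of the 30, or 26.7%, against 7.89% of those genes. The 2 motifs were searched separately, and a match is only a description of the letters. Of the 3 SLFN genes with a promoter, SLFN12L held the response element core, and SLFN11 and SLFN12 did not.

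Of the SLFN genes, SLFN5 alone differed at the 2-fold size, and it did so with Mt-CFX. SLFN genes encode schlafen proteins, several of which are induced by interferon in lymphocytes and other cells and cleave or bind RNA. SLFN5 is known as a nuclear protein that can repress transcription. Its value was 8.42 with Mt-CFX, 6.79 with CFX and 6.46 in the control. The Mt-CFX array was therefore far above the other two, and the CFX array slightly above the control. The difference over control was 1.96 log2 with Mt-CFX, a 3.89-fold difference, and 0.34 log2 with CFX, a 1.26-fold difference. Mt-CFX over CFX was 1.63 log2, or 3.09-fold, at the same dose and time. No other probe set on any array carried the same values as SLFN5, and the gene had 1 probe set. Among the 8868 genes it had the 5th highest difference for Mt-CFX over control, the 80th with CFX over control and the 7th between the compounds.

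Of the relatives of SLFN5, all but SLFN14 had equal values on the 3 arrays. SLFN12, which cleaves RNA when bound by the phosphodiesterase PDE3A, was at 6.53 on all 3 arrays. SLFNL1, a schlafen-like gene, was at 4.36 on all 3. SLFN11, which blocks stressed replication forks and makes cells sensitive to DNA-damaging drugs, was at 2.39 on all 3, SLFN13, a nuclease of tRNA and rRNA, at 2.59, and SLFN12L at 3.45. These lay below the floor. SLFN14, a ribosome-associated nuclease, was at 2.39 with Mt-CFX, 2.39 with CFX and 2.69 in the control, also below the floor. The value of 2.39 is the one that SLFN11 had, and 963 probe sets of the Mt-CFX array and 953 of the CFX array held it, so the size of the SLFN14 difference is uncertain. A gene below the floor may be silent or may be poorly read by its probes, and a difference in it could not be seen here.

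In the RefSeq gene order SLFN5 is followed by SLFN11, SLFN12, SLFN13, SLFN12L and SLFN14. On the other side of SLFN5 the nearest gene above the floor was NLE1, a ribosome assembly factor, at 6.68 with Mt-CFX, 6.70 with CFX and 6.68 in the control. Beyond SLFN14 it was GAS2L2, at 4.03 with Mt-CFX, 3.92 with CFX and 4.22 in the control. None of these neighbours above the floor, SLFN12, NLE1 and GAS2L2, was higher with Mt-CFX than in the control. These neighbours were chosen after the value of SLFN5 was known.

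**Figure D1:**
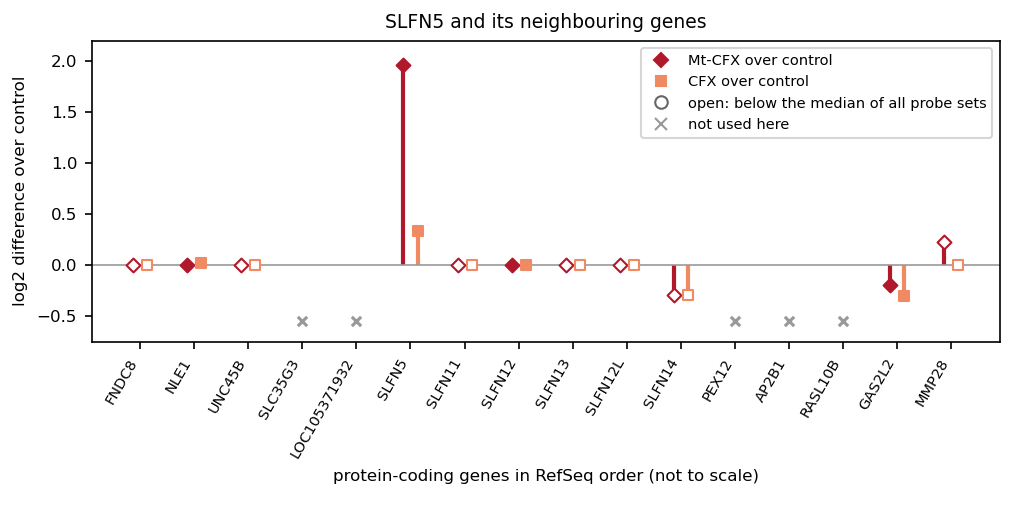
Log2 difference over control for SLFN5 and neighbouring protein-coding genes in RefSeq order, with diamonds for Mt-CFX and squares for CFX (1 array per group, no error bars). SLFN5 stands at 1.96 and 0.34, SLFN12 at 0.00 in both, and open symbols mark genes below the median of all probe sets.

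Over all 43 genes, SLFN5 was the only one past 2-fold in any comparison. For Mt-CFX over control this is 1 of 33 genes compared, where 0.564% of all genes were past 2-fold in either direction. For Mt-CFX over CFX it is also 1 of 33, with 0.383% of all genes past that size. For CFX over control it is 0 of 33, with 0.0226% of all genes past it. Counts of 1 and 0 among 33 genes are too small to set against such shares.

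**Figure D2:**
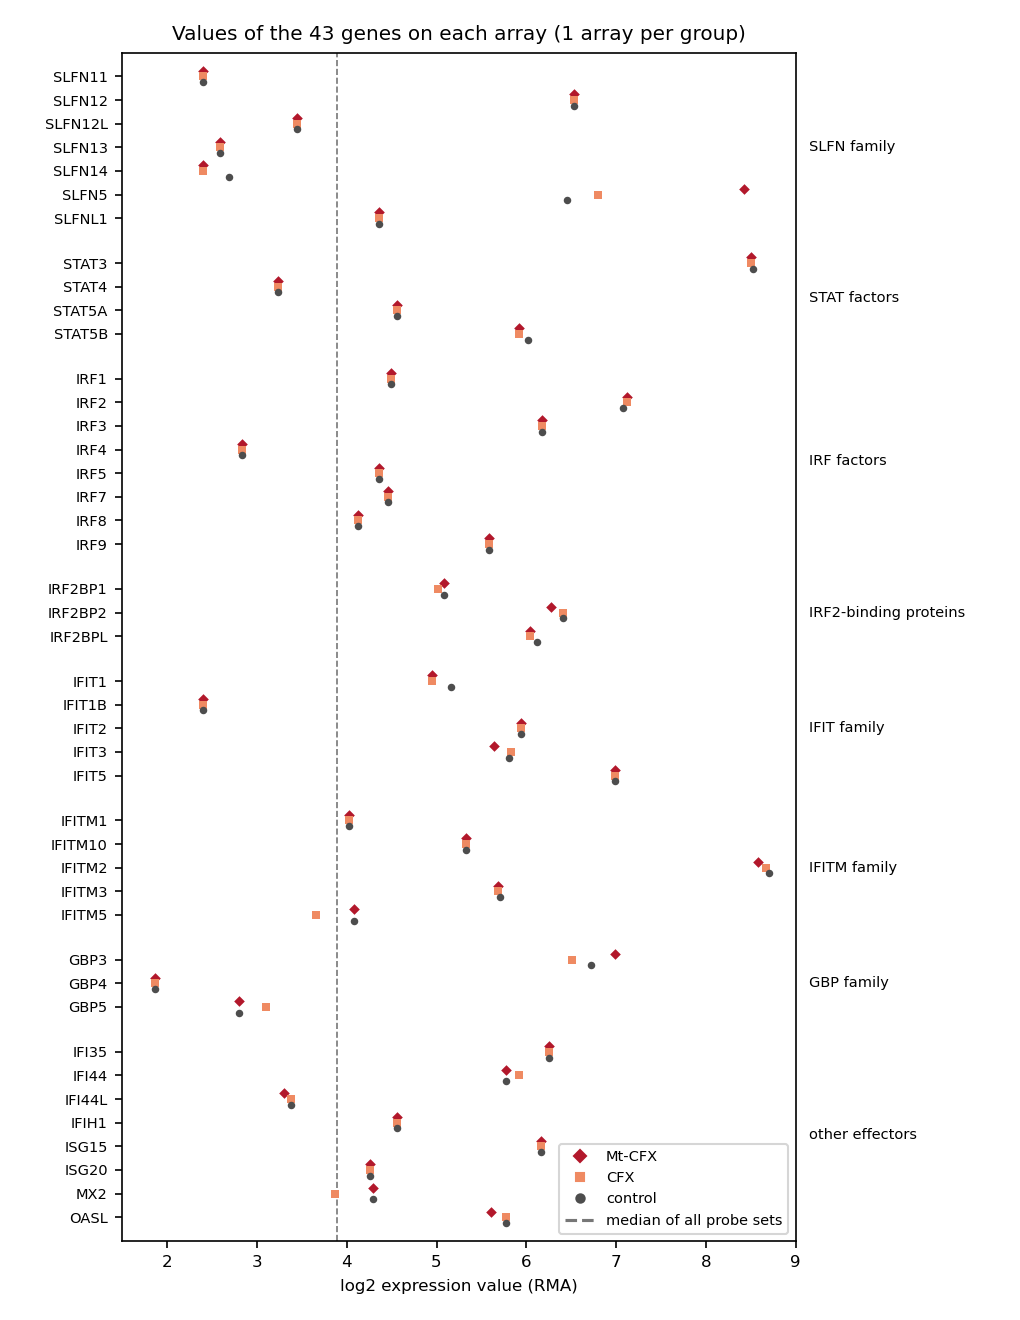
Log2 expression value of the 43 genes on the Mt-CFX array (diamonds), the CFX array (squares) and the control array (circles), by family. The 3 symbols lie in line for most genes, SLFN5 is spread from 6.46 to 8.42, and 10 genes lie left of the dashed line at 3.89, the median of all probe sets.

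Outside the SLFN family, the classic interferon targets and their regulators stayed within 0.43 log2 of the control with either compound. With Mt-CFX 9 of these 30 genes were lower than the control by any amount, 2 were higher and 19 were equal. The shares among all genes compared were 23.2% lower, 23.9% higher and 52.9% equal. The median of the 30 genes was 0.00 log2, as it was for all genes. The lower ones ran from −0.02 to −0.21 log2, and the lowest of them, IFIT1, was at 0.862 of the control level. The control value of IFIT1 was shared by 115 probe sets, so the size of that difference is uncertain. With CFX the 30 genes split into 10 lower, 3 higher and 17 equal, against 15.0%, 25.8% and 59.2% of all genes, again with a median of 0.00. Mt-CFX over CFX gave 5 lower, 4 higher and 21 equal, against 25.2%, 20.1% and 54.7%. The comparisons over control share the control array, so an unusual value there would enter both.

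**Figure D3:**
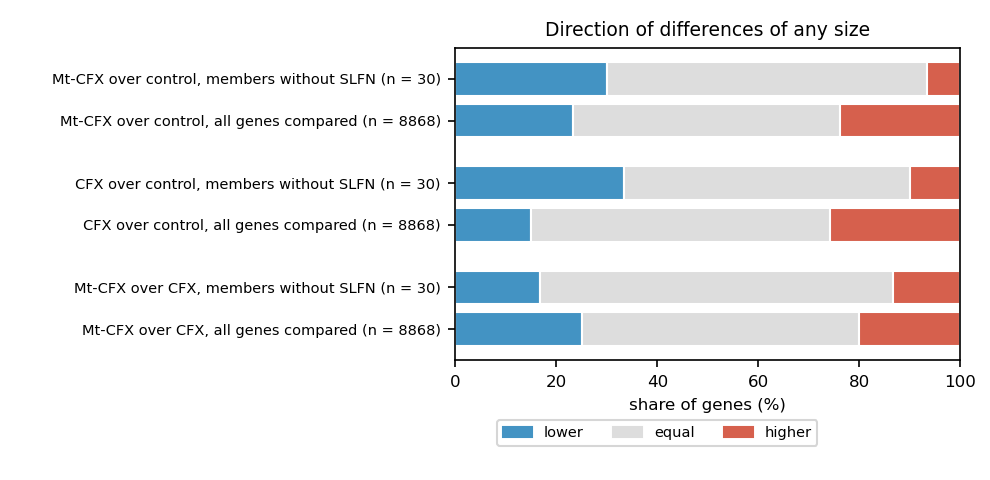
Share of genes (%) that were lower, equal or higher by any amount in each comparison, for the 30 genes outside the SLFN family and for all 8868 genes compared. Equal values are the widest part of every bar, and higher values take 2 of 30 genes with Mt-CFX over control against 23.9% of all genes.

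Of the STAT factors, which carry cytokine signals to the nucleus, STAT3 was at 8.50 with Mt-CFX, 8.50 with CFX and 8.52 in the control. STAT5B was at 5.92 with both compounds and 6.02 in the control. STAT5A was equal on the 3 arrays at 4.56, and STAT4, a factor of lymphocytes, was equal at 3.24, below the floor. The largest of these differences was −0.10 log2, in STAT5B with either compound. Its size is uncertain, since 56 probe sets of the control array held the control value of STAT5B.

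Of 7 IRF factors above the floor, 6 had equal values on the 3 arrays, where 45.3% of all genes compared had. Each of these 6 values was shared by many probe sets, from 40 for IRF3 to 288 for IRF5 on the Mt-CFX array. How far they read the genes themselves is uncertain. IRF3 and IRF7, which switch on interferon genes after sensing, were at 6.17 and 4.46 on all 3 arrays. IRF9, a DNA-binding partner of STAT proteins, was at 5.58 and IRF1, a rapid target and activator, at 4.50, again on all 3. IRF5 at 4.36 and IRF8 at 4.12 were equal as well. IRF4, a factor of lymphoid cells, was equal at 2.83, below the floor. Only IRF2, known as an antagonist of IRF1, differed, with 7.12 with both compounds and 7.08 in the control. Of the IRF2-binding corepressors, which share only part of the name with the factors, IRF2BP2 was at 6.27 with Mt-CFX, 6.41 with CFX and 6.41 in the control, and its other probe set was equal at 5.33. IRF2BPL was at 6.05 with both compounds and 6.12 in the control, and IRF2BP1 was lower with CFX alone, by −0.07 log2.

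The IFIT genes encode proteins that bind viral RNA and hold back its translation. IFIT1, whose promoter is printed above, was at 4.95 with Mt-CFX, 4.95 with CFX and 5.17 in the control, a difference of −0.21 log2 with either compound. As 115 probe sets of the control array held that control value, the size of the IFIT1 difference is uncertain. IFIT3, the binding partner of IFIT1, was at 5.64 with Mt-CFX, 5.82 with CFX and 5.81 in the control. The Mt-CFX array was thus lower by −0.17 log2 and the CFX array differed by 0.01. IFIT2 at 5.94 and IFIT5 at 6.99 were equal on the 3 arrays, and IFIT1B was below the floor.

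The IFITM genes encode small membrane proteins, of which IFITM1, IFITM2 and IFITM3 restrict the entry of viruses. IFITM2 was at 8.58 with Mt-CFX, 8.67 with CFX and 8.70 in the control. IFITM3 was at 5.68 with both compounds and 5.71 in the control. IFITM1 at 4.02 and IFITM10 at 5.33 were equal. IFITM5, known from bone-forming cells, was at 4.08 with Mt-CFX, 3.65 with CFX and 4.08 in the control. The CFX value of IFITM5 lay below the floor and was held by 600 probe sets of that array, so the size of its difference of −0.43 log2 is uncertain. The IFITM genes are close relatives, and how far their probes read each other's transcripts was not tested.

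GBP3, a guanylate-binding GTPase of the defence against intracellular microbes, stood on opposite sides of the control with the compounds. GBP3 was at 6.99 with Mt-CFX, 6.51 with CFX and 6.72 in the control. The difference over control was 0.27 log2 with Mt-CFX and −0.21 log2 with CFX, and Mt-CFX over CFX was 0.48 log2, a 1.40-fold difference. The control value of GBP3 was shared by 15 probe sets, so the sizes over control are uncertain. Above the floor, IFIT3 was the other gene whose differences had opposite signs, at −0.17 with Mt-CFX and 0.01 with CFX. GBP4 and GBP5 were below the floor on every array. GBP5 was at 2.79 with Mt-CFX, 3.10 with CFX and 2.79 in the control.

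The other effectors were mostly equal. ISG15, a ubiquitin-like protein attached to others after interferon, was at 6.16 on all 3 arrays. IFIH1, the RNA sensor MDA5, was equal at 4.56, IFI35 at 6.25 and ISG20, an RNA exonuclease, at 4.26. OASL, a relative of the oligoadenylate synthetases, was at 5.61 with Mt-CFX, 5.77 with CFX and 5.77 in the control. IFI44 was at 5.78 with Mt-CFX, 5.91 with CFX and 5.78 in the control, and its relative IFI44L was below the floor. MX2, a GTPase that blocks nuclear import of retroviruses, was at 4.29 with Mt-CFX, 3.86 with CFX and 4.29 in the control. The MX2 value with CFX was below the floor and shared by 528 probe sets, so its difference of −0.42 log2 is also of uncertain size.

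**Figure D4:**
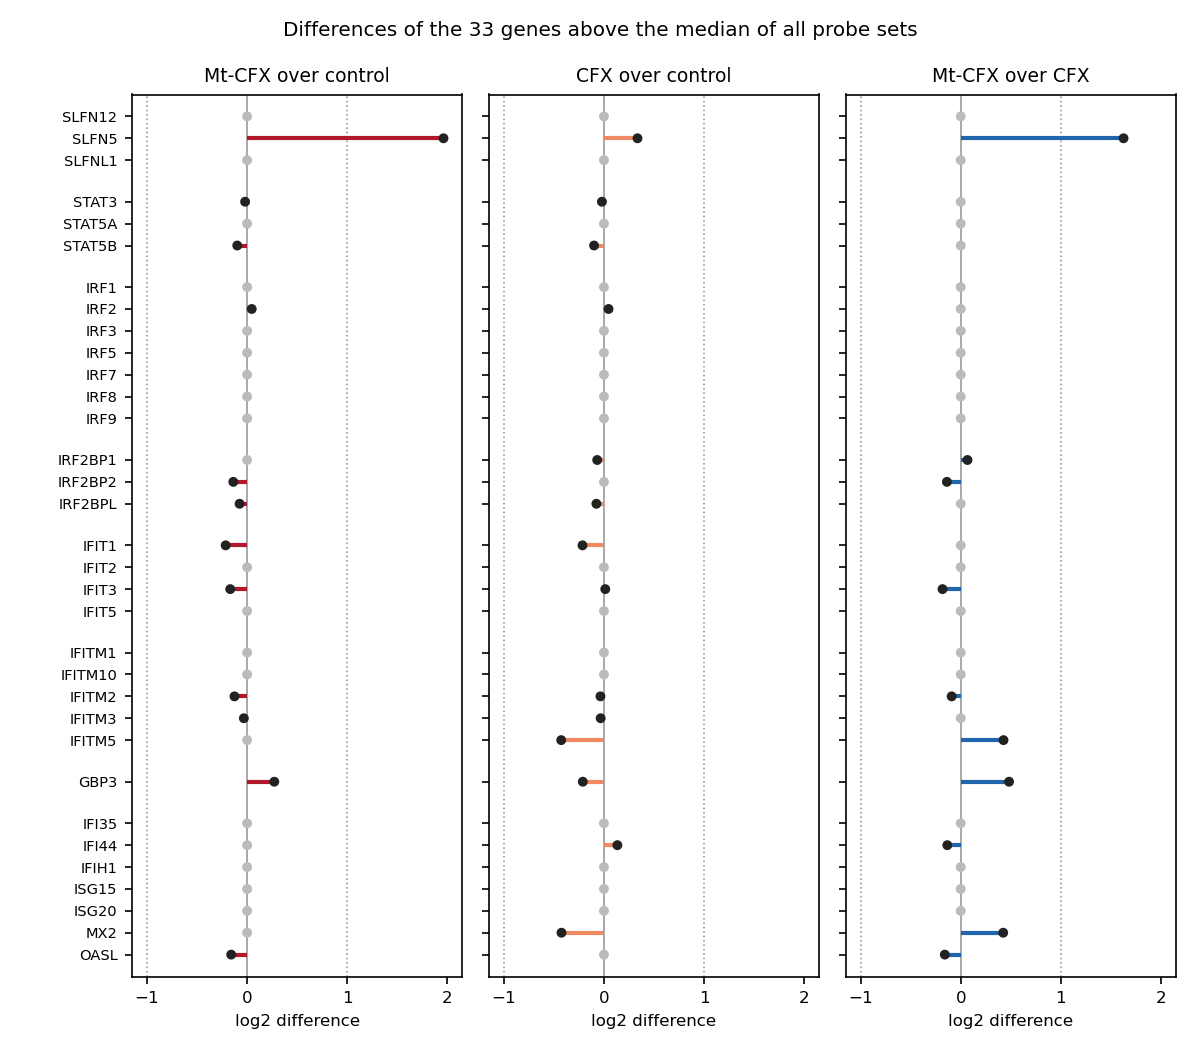
Log2 difference of the 33 genes above the floor in each of the 3 comparisons, with grey points for equal values and dotted lines at 2-fold. SLFN5 passes the dotted line for Mt-CFX over control and over CFX, while GBP3 points right with Mt-CFX and left with CFX.

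Of the 11 genes with a response element core, 9 were above the floor, and 5 of these were equal on all 3 arrays. With Mt-CFX 3 of the 9 were lower than the control, 0 were higher and 6 were equal, in a range from −0.21 to 0.00 log2, where all genes had 23.2% lower, 23.9% higher and 52.9% equal. With CFX, 2 of the 9 were higher, 2 lower and 5 equal, against 25.8%, 15.0% and 59.2% of all genes, and the highest was IFI44 at 0.13. The sizes for IFIT1, at −0.21, and for IFI44 are uncertain, since 115 and 59 probe sets shared their control values. Of the 8 genes with the gamma-activated site core, 6 were above the floor, and 4 of the 6 were equal on all 3 arrays, where 45.3% of all genes compared were. GBP3 was among the 6 and held no response element core in its window. A link between this motif and the GBP3 differences was not tested.

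The other genes of the pathway came from 5 lists, and none of the 22 interferon ligand genes was analysed here. Of 17 receptors, kinases and inhibitors 8 were named by the annotation and 6 compared. With Mt-CFX 2 of the 6 were higher than the control, 1 was lower and 3 were equal, with 0 past 2-fold. All genes had 23.9% higher, 23.2% lower, 52.9% equal and 0.564% past 2-fold. JAK1, the kinase of the interferon receptors, was at 8.63 with Mt-CFX, 8.45 with CFX and 8.42 in the control. Its partner TYK2 was equal at 5.60. SOCS1, an inhibitor of JAK kinases, was below the floor on every array, at 2.95 with Mt-CFX, 3.53 with CFX and 3.53 in the control.

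Of 20 compared genes of nucleic acid sensing 5 were higher with Mt-CFX than in the control, 5 were lower and 10 were equal, with 0 past 2-fold. These counts lie near the shares of all genes, 23.9% higher, 23.2% lower and 52.9% equal, with 0.564% past 2-fold. TRIM25, the ubiquitin ligase that activates the RNA sensor RIG-I, was at 9.32 with Mt-CFX, 8.68 with CFX and 8.55 in the control, a difference of 0.77 log2 with Mt-CFX and 0.12 with CFX. RIGI, the sensor itself, went the other way, with 7.03 with Mt-CFX, 7.52 with CFX and 7.60 in the control, a difference of −0.57 log2 with Mt-CFX and −0.07 with CFX. CGAS, the sensor of cytosolic DNA, was equal on the 3 arrays at 7.18, and its adaptor STING1 at 5.93. MAVS, the mitochondrial adaptor of RNA sensing, was at 7.55 with Mt-CFX, 7.67 with CFX and 7.65 in the control. With CFX, 4 of the 20 were higher, 2 lower and 14 equal, against 25.8%, 15.0% and 59.2% of all genes. TANK, which links TRAF proteins to the kinase TBK1, was higher with Mt-CFX by 0.36 log2 and equal with CFX.

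Of 30 compared interferon-stimulated genes outside the rule 6 were higher with Mt-CFX than in the control, 11 were lower and 13 were equal, with a median of 0.00, against 23.9%, 23.2% and 52.9% of all genes. With CFX the split was 3 higher, 8 lower and 19 equal, against 25.8%, 15.0% and 59.2%. WARS1, the only one past 2-fold where 0.564% of all genes were, was at 7.09 with Mt-CFX, 5.98 with CFX and 6.05 in the control, and its other probe set was equal at 4.50, so that the mean of both differed by 0.52 log2 with Mt-CFX, below 2-fold. WARS1 is an interferon target that also belongs to the tRNA synthetases. TRIM38, a ubiquitin ligase that tunes innate signalling, was at 8.25 with Mt-CFX, 7.74 with CFX and 7.80 in the control. RSAD2, CXCL10 and CXCL11, inducible targets, were equal on the 3 arrays below the floor, and CXCL9 was below the floor as well. In antigen presentation 5 of 22 listed genes were measured. With Mt-CFX 4 of the 5 were lower, where 23.2% of all genes were, led by ERAP2 at −0.26 log2. B2M was higher by 0.11 at the probe set used and equal at its other, and the median over the 5 was −0.12. With CFX 4 of the 5 were equal to the control, where 59.2% of all genes were, and B2M differed by 0.00095. Counts among 5 genes are too small to set against such shares. Beside these lists, 10 of 11 markers of the ATF4 stress response were measured, and their differences over control ran from 0.69 to 2.82 log2 with Mt-CFX and from −0.17 to 0.67 log2 with CFX. One of them, DDIT3, passed the floor only through its Mt-CFX value, at 4.75 with Mt-CFX, 3.06 with CFX and 3.06 in the control. The lowest difference with Mt-CFX, 0.69 in ATF3, is of uncertain size, since 397 probe sets of the control array held its control value of 4.08. The part of these markers in the SLFN5 difference was not tested.

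**Figure D5:**
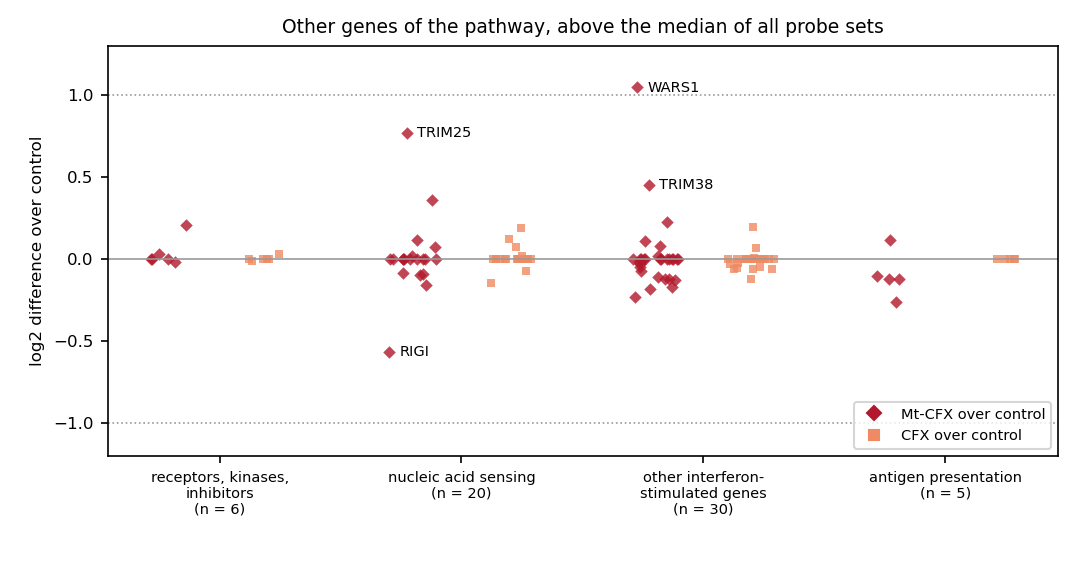
Log2 difference over control for the other pathway genes above the floor, with diamonds for Mt-CFX and squares for CFX and dotted lines at 2-fold (1 array per group). WARS1 lies at 1.05, TRIM25 at 0.77, TRIM38 at 0.45 and RIGI at −0.57 with Mt-CFX, while the squares lie between −0.15 and 0.19.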

How the data were processed

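Total RNA was hybridised to 3 whole-transcript arrays, 1 per group. The deposited log2 values per probe set were made by the authors with RMA; the submitters' processing notes name Affymetrix Expression Console, and version and genome build are not given in the sources used here. RMA gives all arrays nearly the same distribution, so a shift in total RNA cannot be seen. The annotation named 16098 of 53617 probe sets, all matched to RefSeq by gene ID, and the other 37519 entered no comparison. The probe set with the highest mean of the 3 arrays stood for a gene (1 of the 43 genes had several).

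Log2 differences were taken, with values within 1e-09 called equal and no test. Named genes were all SLFN genes, genes differing by at least 1.25-fold, the 5 genes with the highest values, preset regulators and effectors, and, in other lists, genes differing by at least 1.5-fold with some preset genes. JAK1, TYK2, CGAS, STING1, MAVS, RIGI and B2M were preset. TANK, TRIM38, ERAP2, RSAD2, CXCL9, CXCL10, CXCL11, NLE1 and GAS2L2 were named after their values were seen. The remaining genes were named to account for the families. The genes and lists were chosen with earlier results of these data known. Counting was tested on simulated data. Alternatives were other floors, the mean of probe sets, 2 re-centrings, a 1.5-fold size and leaving out the SLFN genes. Protein sequences were not used here. Software was Python 3.11.15, numpy 2.4.6, pandas 2.3.3, statsmodels 0.14.6 and matplotlib 3.10.9. Precision is limited by there being 1 array per group.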

Additional observations from a re-analysis of the deposited data

How the results depend on the processing

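With 1 array per group no replicate could be left out, and small differences cannot be told from the variation between cultures. No paired analysis was possible because each group is 1 array. SLFN5 kept its differences of 1.96, 0.34 and 1.63 log2 within 0.1 log2 under every floor, with the mean of probe sets and with both re-centrings. Without the SLFN genes, 0 genes were past 2-fold for Mt-CFX over control and 0 for Mt-CFX over CFX, and at 1.5-fold the counts were as at 2-fold. With a floor at the 75th percentile of all probe sets, 6 genes were lower for CFX over control in place of 10, and 2 were higher for Mt-CFX over CFX in place of 5, since fewer genes were compared. Re-centring by a lowess curve with a span of 0.3 made 29 genes lower for CFX over control, and 13 higher and 20 lower for Mt-CFX over CFX, because any shift, however small, turns equal values into unequal ones. Counts of differences of any size thus depend on the ties in the deposited values. The other counts over the families stayed within 1.5 times. Each of the 43 genes stayed within 0.1 log2 wherever it was compared, as did the medians. For single genes too, the floors could move no difference, and only IRF2BP2 had several probe sets. For the other lists no floor, the mean of probe sets and the lowess curve were run. WARS1 was at 0.52 log2 for Mt-CFX over control and 0.55 for Mt-CFX over CFX with the mean of its probe sets, which left 0 of the other interferon-stimulated genes past 2-fold in both, and with no floor SOCS1 raised the lower genes among receptors and kinases to 2. The lowess curve moved 11 list counts by over 1.5 times through the ties. Counts for single families and for genes with a motif were not recomputed.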

Other observations

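Probe sets of 2 non-coding loci carried the name stems and were outside the rule. SLFNL1-AS1, a long non-coding RNA antisense to SLFNL1, was at 5.56 with Mt-CFX, 5.38 with CFX and 5.38 in the control, a difference of 0.18 log2 with Mt-CFX, while SLFNL1 was equal on the 3 arrays. IFITM4P, a transcribed pseudogene of the IFITM family, had 6 probe sets, of which 5 differed by 0.00 with Mt-CFX and by 0.01 log2 with CFX, and the other by 0.03 with Mt-CFX and by 0.16 log2 with CFX.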
